A study of Mus musculus with 12 samples.

Results

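The forkhead (Fox) and Sox genes encode DNA-binding transcription factors that set cell fate in many tissues, bone and cartilage among them. The set held here the 63 protein-coding genes whose symbols carry a Fox letter and number or a Sox number, 44 Fox and 19 Sox genes, out of 21883 genes that code for protein (chromosomes 1 to 19, X and Y). Membership was set by symbol, with no measured value in the rule, but the set was chosen with earlier results of these data known. For each gene, the peaks that overlapped its span in the RefSeq gene table of GRCm38, or the 5 kb on either side, were counted in every list. The assay was chromatin immunoprecipitation with an antibody against MACF1, a large protein that links actin to microtubules, and sequencing of the recovered DNA. The cells were MC3T3-E1, an osteoblast line from the mouse. The 12 samples formed 4 groups of 3: immunoprecipitates and inputs from control cells, and immunoprecipitates and inputs from cells with MACF1 knockdown, each labelled 1, 2 and size3. The study asked where the antibody recovered DNA under each condition. Treatment, culture time and the means of knockdown are not given in the sources used here, and neither is the meaning of size3. The labels name more than 1 antibody lot without assigning a lot to any library, and they do not say that the libraries came from separate cultures, so a p-value between groups measures only the spread between these libraries. A DNA recovery assay holds no expression values with which to check the labelled cell type or the knockdown.

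Forkhead factors bind DNA through a winged-helix domain, and Sox factors through an HMG box that bends DNA. In the skeleton, Sox9 with Sox5 and Sox6 directs cartilage formation, Foxc1 and Foxc2 act in skeletal mesenchyme, and FoxO factors, which leave the nucleus when insulin and AKT signalling is active, act in osteoblasts in the response to oxidative stress. Several Sox factors, the SoxF group among them, are known to antagonise Wnt signalling through β-catenin, and FoxO factors compete with TCF factors for β-catenin.

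The peak lists differed in length. Control lists 1, 2 and size3 held 772, 198 and 2196 peaks, and the knockdown lists held 21398, 4513 and 17592 in the same order. The redundant share of reads was 0.25, 0.16 and 0.01 for the control immunoprecipitates and 0.51, 0.65 and 0.02 for those from knockdown cells, and the reads left after duplicate removal ran from 5575205 in knockdown 2 to 33085606 in control 2. The part of depth and redundancy in the results below was not tested.

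The upstream sequences of 6 of the genes are printed first, because some of the peaks at this set lay over the start of a gene. Most did not: at the genes with a known start, 20 knockdown 1 peaks lay over a start window and 42 elsewhere. In knockdown size3 the numbers were 8 and 41. Each sequence line gives the 250 bases before the annotated start from RefSeq, build GRCm38.p6, plus strand, 5′ to 3′, with every CpG dinucleotide in capitals. Among the 41 genes with such a sequence, Foxl2 (chr9:98955357-98955606), an ovarian factor, and Sox30 (chr11:45980060-45980309), a factor of male germ cells, were those whose start window lay under a peak in both knockdown 1 and knockdown size3. Foxk2 (chr11:121259737-121259986), a metabolic regulator, had more CpG in its start window than any other window of the set and a knockdown 1 peak over it. Foxo1 (chr3:52268087-52268336), a FoxO factor, had a knockdown size3 peak over its start. Foxd1 (chr13:98353995-98354244), a factor of kidney stroma, and Foxp3 (chrX:7579426-7579675), the defining factor of regulatory T cells, had no peak in any list.
Foxl2: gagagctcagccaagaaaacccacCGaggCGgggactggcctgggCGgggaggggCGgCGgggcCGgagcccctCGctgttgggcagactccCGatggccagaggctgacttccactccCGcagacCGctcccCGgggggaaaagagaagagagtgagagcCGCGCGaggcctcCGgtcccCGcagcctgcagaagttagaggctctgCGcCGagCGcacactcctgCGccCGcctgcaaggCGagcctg
Sox30: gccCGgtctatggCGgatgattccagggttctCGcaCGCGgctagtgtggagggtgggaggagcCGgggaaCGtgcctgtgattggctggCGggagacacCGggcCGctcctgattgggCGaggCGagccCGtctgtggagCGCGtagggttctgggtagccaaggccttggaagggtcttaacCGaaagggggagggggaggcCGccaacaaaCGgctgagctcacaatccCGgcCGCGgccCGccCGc
Foxk2: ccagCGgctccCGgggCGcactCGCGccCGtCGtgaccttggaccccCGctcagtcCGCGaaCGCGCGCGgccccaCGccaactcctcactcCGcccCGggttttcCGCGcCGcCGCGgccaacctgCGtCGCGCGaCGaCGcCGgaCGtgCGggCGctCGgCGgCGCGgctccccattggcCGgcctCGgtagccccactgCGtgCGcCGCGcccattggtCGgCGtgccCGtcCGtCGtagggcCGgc
Foxo1: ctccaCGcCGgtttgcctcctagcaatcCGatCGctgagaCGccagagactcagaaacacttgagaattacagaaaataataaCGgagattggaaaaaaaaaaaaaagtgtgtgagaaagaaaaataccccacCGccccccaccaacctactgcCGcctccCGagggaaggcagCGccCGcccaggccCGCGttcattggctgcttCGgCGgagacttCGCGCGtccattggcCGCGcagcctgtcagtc
Foxd1: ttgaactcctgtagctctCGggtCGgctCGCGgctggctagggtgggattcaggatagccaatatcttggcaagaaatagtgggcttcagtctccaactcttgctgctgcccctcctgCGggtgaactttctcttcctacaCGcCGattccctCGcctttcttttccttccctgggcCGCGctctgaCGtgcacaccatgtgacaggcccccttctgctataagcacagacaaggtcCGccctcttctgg
Foxp3: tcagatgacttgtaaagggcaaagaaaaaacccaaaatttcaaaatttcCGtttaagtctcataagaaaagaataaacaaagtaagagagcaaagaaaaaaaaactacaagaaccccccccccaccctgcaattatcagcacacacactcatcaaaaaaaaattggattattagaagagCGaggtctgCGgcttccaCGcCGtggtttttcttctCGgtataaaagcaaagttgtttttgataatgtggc
The 250 bases of Foxk2 held 48 CpG, those of Sox30 and Foxl2 held 23 and 22, and those of Foxo1 held 20. Foxd1 had 12 and Foxp3 had 6 in the stretch printed. These 6 were chosen for their peaks and their CpG, and other genes of the set went the other way. Sox15, Foxe3 and Foxb2 had 5, 6 and 7 CpG in the same stretch and a peak over the start, and Foxo3, Foxf2, Foxa1 and Foxr1 had 31, 21, 21 and 15 and none there.

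Fox and Sox genes had a peak in knockdown 1 and in knockdown size3 more often than protein-coding genes at large, and rarely had one in a control list. A gene with at least 1 peak in a list is called marked in it. In knockdown 1, 43 of the 63 genes (68.3%) had a peak, against 43.7% of all protein-coding genes. In knockdown size3, 35 genes (55.6%) had one, against 35.4%. Knockdown 2 marked 5 genes (7.94%), which was the background share of 7.95%. Control 1 and control 2 each marked 1 gene (1.59%), against 1.38% and 0.315% of all genes, and control size3 marked 5 (7.94%), against 5.49%. The share thus lay above that of all genes in knockdown 1 and knockdown size3, and also, on 5 genes or fewer, in the control lists. Knockdown 2 marked as many Fox and Sox genes as control size3.

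Across lists, 54 of the 63 genes (85.7%) had a peak in at least 1 list, against 58.7% of all genes. A peak in 2 or more knockdown lists was found for 25 genes (39.7%, against 26.1%), and 24 of them had it in both knockdown 1 and knockdown size3 (38.1%, against 23.4%). The remaining gene, Foxj3, had peaks in knockdown 1 and knockdown 2. A peak in 2 or more control lists was found for 1 gene, Sox5 (1.59%, against 0.457%). A peak in all 3 knockdown lists and no control list was also found for 1 gene, Sox30 (1.59%, against 2.35%). The 2 families were alike in knockdown 1, where 29 of 44 Fox genes (65.9%) and 14 of 19 Sox genes (73.7%) had a peak. In knockdown size3 the counts were 26 Fox genes (59.1%) and 9 Sox genes (47.4%).

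**Figure D1:**
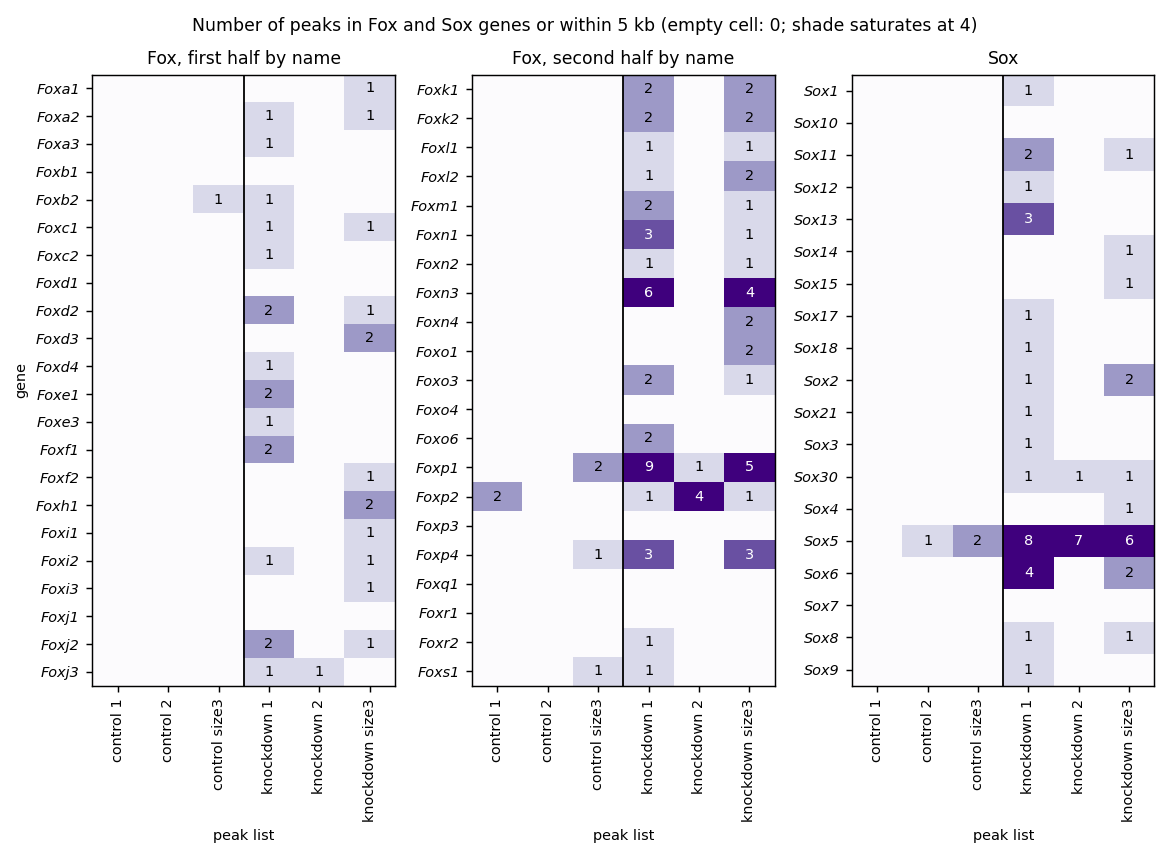
Number of peaks at 43 Fox and 19 Sox genes (rows) in each of the 6 peak lists (columns), with a line between control and knockdown lists and an empty cell for 0. The columns for knockdown 1 and knockdown size3 hold 42 and 34 marked genes, and each of the other columns holds 1 or 5.

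The grid of peaks by gene shows how few genes left the pattern of knockdown 1, knockdown size3 or both. A single list marked 27 genes, 2 lists marked 22, 3 lists marked Foxp4 and Sox30, 4 lists marked Foxp1 and Foxp2, and 5 lists marked Sox5. No list marked Foxb1, Foxd1, Foxj1, Foxo4, Foxp3, Foxq1, Foxr1, Sox7 and Sox10.

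The share of all protein-coding genes with a peak was 2.40% ± 2.73 (SD, n = 3) in control and 29.0% ± 18.7 (SD, n = 3) in knockdown lists, a difference of 26.6 percentage points (exact two-sided permutation p = 0.1 over 20 assignments, the smallest value that 3 against 3 allows). With each list cut to its 198 best peaks by score, the length of the shortest list, this difference was 0.382 points (exact two-sided permutation p = 0.4). Fox and Sox genes followed that difference, with 2.33 ± 2.31 genes per control list and 27.7 ± 20.0 genes per knockdown list (SD, n = 3), and the lowest knockdown list equalled the highest control list. The difference in the number of Fox and Sox genes was 0 at these equal list lengths. The control lists, in the order 1, 2 and size3, then marked 0, 1 and 3 of the 63 genes, and the knockdown lists 3, 0 and 1. As shares, the control lists marked 0%, 1.59% and 4.76% of the set, against 0.320%, 0.315% and 0.594% of all genes. The knockdown lists marked 4.76%, 0% and 1.59%, against 1.18%, 0.233% and 0.964%.

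Longer genes had peaks more often, and Fox and Sox genes were shorter than most, so shares were also compared within classes of length. Their median span was 4796 bp, from 1311 bp (Foxs1) to 953863 bp (Sox5), while the median of all protein-coding genes was 17170 bp. Among genes under 10 kb, knockdown 1 marked 24 of 41 Fox and Sox genes (58.5%) against 25.6% of all genes of that length. Knockdown size3 marked 19 of these 41 (46.3%) against 19.2%. Knockdown 2 marked none of the 41, where it marked 1.54% of all short genes, and control size3 marked 2 (4.88%, against 1.64%).

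Among genes of 10 to 50 kb, knockdown 1 marked 10 of 12 (83.3%, against 45.5%) and knockdown size3 marked 7 (58.3%, against 36.6%). Among genes of 50 kb or more, knockdown 1 and knockdown size3 each marked 9 of 10 (90.0%, against 69.4% and 59.5%). Knockdown 2 marked 4 of these 10 long genes (40.0%, against 22.6%) and control size3 marked 3 (30.0%, against 13.1%). In each length class, the share in knockdown 1 and knockdown size3 was above that of all genes of the class. The class of 50 kb or more has no upper limit, and it holds Sox5 and other very long genes, so peaks per length are given below.

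**Figure D2:**
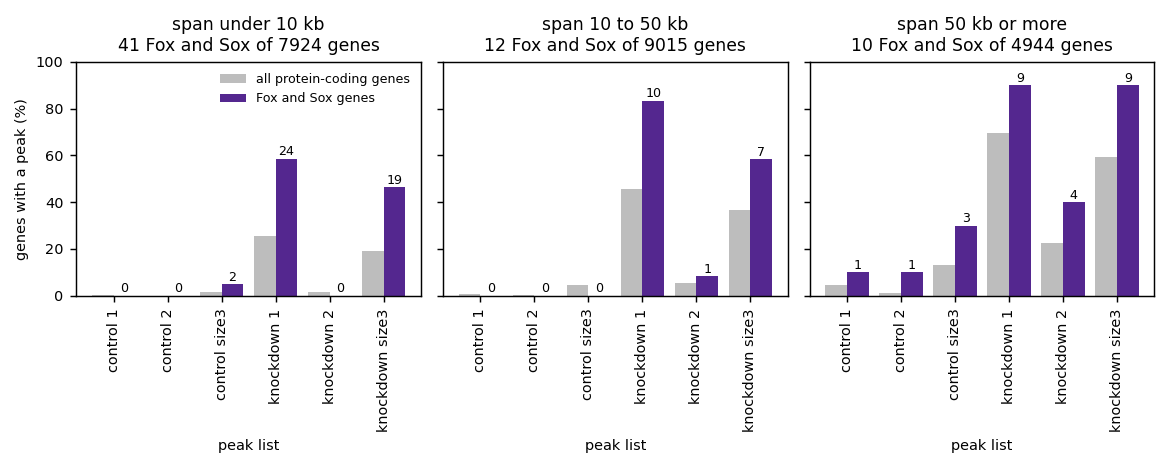
Share of genes with a peak (percent, vertical axis from 0) in each of the 6 lists, for genes with a span under 10 kb, of 10 to 50 kb and of 50 kb or more; gray bars are all protein-coding genes, purple bars the Fox and Sox genes with their number on top. Purple bars stand above gray bars in knockdown 1 and knockdown size3 in each length class, and among the 41 short genes knockdown 1 marked 24.

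At short genes the knockdown 1 peaks spread over much of the gene. The 82 peaks of knockdown 1 at Fox and Sox genes had a median width of 1780 bp, against 1177 bp for its peaks at all genes, and 17 of them (20.7%) were 3 kb or wider, against 12.5%. Of the 21 genes under 10 kb with a knockdown 1 peak inside the span, the peaks covered a median of 74.6% of the gene, against 32.4% for all such short genes. Of these 21, 15 (71.4%) were covered over 50% or more of their length, against 33.2% of all such short genes. The widest knockdown 1 peaks of the set were at Sox8 (6265 bp, 616 reads), a SoxE factor close to Sox9, at Foxs1 (6078 bp, 365 reads, in the flank, over Mylk2 and not over Foxs1), a factor of perivascular cells, at Foxp4 (5898 bp, 417 reads), and at Foxb2 (5254 bp, 362 reads), a factor of the nervous system. The Foxb2 peak covered the gene from end to end, as did a peak of 3927 bp with 303 reads at Foxe1, a thyroid factor.

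The knockdown size3 peaks were narrower. Its 58 peaks at Fox and Sox genes had a median width of 734 bp (691 bp at all genes), none reached 3 kb, and they covered a median of 29.0% of the short genes they lay in (15.6% for all short genes). The 14 peaks of knockdown 2 had a median width of 358 bp and a median of 9 reads. The false discovery rate that the authors deposited was 5% or less for 79 of 82 peaks in knockdown 1 and for 32 of 58 in knockdown size3, was 100% for each of the 14 in knockdown 2, and lay between 55.88% and 100% for the 10 peaks of the control lists. At a limit of 5%, 40 genes (63.5%, against 43.2% of all genes) kept a knockdown 1 peak and 26 (41.3%, against 25.1%) a knockdown size3 peak. No Fox or Sox gene kept one in another list, where 0% to 0.0320% of all genes did.

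Most peaks touched the gene itself. In knockdown 1, 45 peaks lay inside a gene, 27 crossed a gene end, 2 covered a gene and 8 lay in the 5 kb flank. In knockdown size3 the numbers were 40, 9, 0 and 9. A summit within 1 kb of a gene end was found for 22 of 82 knockdown 1 peaks (26.8%, against 21.4% at all genes) and for 13 of 58 knockdown size3 peaks (22.4%, against 18.6%). Most of these genes are short, and at those of 50 kb or more the shares were 5.56% (2 of 36) against 13.5% in knockdown 1 and 7.69% (2 of 26) against 9.46% in knockdown size3. In a few cases the peak lay over another protein-coding gene: Rhno1 under 1 Foxm1 peak, Mylk2 under the knockdown 1 peak near Foxs1, and Kifc2 near Foxh1.

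Of the cartilage trio, Sox9 had 1 peak, in knockdown 1, and none in the other lists. It ran over chr11:112781909-112784262, crossed the lower end of the gene, covered 37.0% of it and held 151 reads at a fold enrichment of 4.31, the deposited ratio of reads at the summit to the local background. Sox5 and Sox6, which assist Sox9, are long genes and had respectively 8 and 4 peaks in knockdown 1, 7 and 0 in knockdown 2, and 6 and 2 in knockdown size3. Sox13, the other SoxD gene, had 3 peaks in knockdown 1 and none elsewhere. One of these, of 2587 bp and 186 reads, had its summit 16 bp from the annotated start.

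In the SoxE group, Sox8 had overlapping peaks in knockdown 1 and knockdown size3, with 616 and 56 reads, and Sox10, a factor of neural crest and glia, had none. The SoxC genes act in progenitor survival. Sox11 had a knockdown 1 peak of 2966 bp with 176 reads over its start, a second of 504 bp with 21 reads in the flank, and a knockdown size3 peak of 1211 bp with 32 reads that overlapped the first. Sox4 had a knockdown size3 peak inside the gene (668 bp, 18 reads, fold 8.66) and none in knockdown 1, while Sox12 had a knockdown 1 peak of 4337 bp with 271 reads and none in knockdown size3.

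The SoxF genes, endothelial and endodermal factors known as Wnt antagonists, had no knockdown size3 peak. Sox18 had a knockdown 1 peak of 2872 bp with 226 reads that covered 92.2% of the gene. Sox17 had one of 2371 bp with 145 reads that covered 36.5%, and Sox7 had none in any list. The SoxB genes of neural progenitors were marked mainly in knockdown 1. Sox2, also a factor of pluripotent cells, had a knockdown 1 peak of 3423 bp with 222 reads that overlapped both of its knockdown size3 peaks, of 598 and 992 bp. Sox1, Sox3 and Sox21 had 1 knockdown 1 peak each, with 90, 77 and 216 reads, whereas Sox14 had 1 knockdown size3 peak (22 reads) in the flank. Sox15 had 1 knockdown size3 peak that crossed a gene end, with 41 reads and a fold of 6.55.

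Sox30 was marked in 3 lists. It had no peak in control 1, 2 and size3 and 1 peak in each of knockdown 1, 2 and size3, with 124, 11 and 15 reads. The knockdown 1 and size3 peaks overlapped over 702 bp at the start printed above, but the knockdown 2 peak was a separate one of 440 bp in the flank, 4639 bp from the gene.

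The FoxO genes were split between lists. Foxo1 had 2 peaks, both in knockdown size3: one of 2149 bp with 57 reads and a fold of 9.45 whose lower end lay over the upstream sequence printed above (chr3:52268266-52270414), and one of 785 bp with 24 reads inside the gene. Foxo3 had 2 neighbouring knockdown 1 peaks of 92 and 94 reads and a knockdown size3 peak of 20 reads, with summits at 42190216 and 42191380 against 42205106 on chromosome 10, so the libraries marked different sites. Foxo6 had 2 knockdown 1 peaks, of 151 and 60 reads, and Foxo4 had no peak. Both FoxK genes, regulators of metabolism, had 2 peaks in knockdown 1 and 2 in knockdown size3. At Foxk2 both pairs overlapped, at the start and again about the site chr11:121296628-121297267, where the summits were 10 bp apart. At Foxk1 no peak of one list overlapped a peak of the other.

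The FoxC genes of skeletal and vascular mesenchyme were marked in knockdown 1. Foxc1 had a peak of 2896 bp with 133 reads that covered 54.1% of the gene, and a knockdown size3 peak of 458 bp with 11 reads in the flank. Foxc2 had a peak of 2558 bp with 191 reads that covered 84.3% of the gene and none in knockdown size3. These genes sit in clusters with FoxF, FoxL and FoxQ genes. On chromosome 8, Foxf1, a factor of lung and gut mesenchyme, had 2 knockdown 1 peaks, of 77 and 230 reads, and Foxl1 had a knockdown 1 peak in its flank (135 reads) and a knockdown size3 peak inside it (38 reads). On chromosome 13, Foxf2 had 1 knockdown size3 peak (21 reads) and Foxq1 had none. The members of a cluster thus differed in the lists that marked them.

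Among the FoxA genes, pioneer factors of endoderm and liver, Foxa2 had a knockdown 1 peak of 3795 bp with 230 reads that overlapped a knockdown size3 peak of 1284 bp with 32 reads. Foxa1 was marked in knockdown size3 (17 reads) and Foxa3 in knockdown 1 (69 reads). Foxd2 had 2 knockdown 1 peaks, of 75 and 195 reads, and a knockdown size3 peak of 13 reads in the flank. Foxd4 had 1 knockdown 1 peak (205 reads, 89.2% of the gene covered) and Foxd3, a neural crest factor, had 2 knockdown size3 peaks, of 12 and 15 reads. Foxe3, a lens factor next to Foxd2 on chromosome 4, had 1 knockdown 1 peak of 98 reads that covered 97.4% of the gene.

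The FoxN genes were each marked in knockdown size3. Foxn1, the factor of thymic epithelium, had 3 knockdown 1 peaks, of 68 to 104 reads, and a separate knockdown size3 peak of 43 reads. Foxn2 had a knockdown 1 peak of 2204 bp with 256 reads at a gene end and a knockdown size3 peak of 627 bp with 24 reads, with summits 19 bp apart. Foxn4, a retinal factor, had 2 knockdown size3 peaks, of 33 and 35 reads. Foxm1, a factor of cell division, had 2 knockdown 1 peaks, of 132 and 211 reads, and a knockdown size3 peak of 16 reads at another site. Foxh1, a partner of Smad proteins in Nodal signalling, had 2 knockdown size3 peaks in its flank, of 30 and 40 reads, both over Kifc2.

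The FoxI genes, of ionocytes and placodes, leaned to knockdown size3, with 3 of 3 marked there and Foxi2 alone in knockdown 1. The Foxi3 peak (chr6:70956051-70957509, 43 reads, fold 11.03) had a score of 156.61, the highest of the 58 knockdown size3 peaks at these genes, and its summit lay 53 bp from the start. Its deposited false discovery rate of 8.0% was also the highest of the 58. Foxi1 had a knockdown size3 peak of 12 reads in the flank. Foxi2 had a knockdown size3 peak of 30 reads inside the gene and a knockdown 1 peak of 25 reads in the flank. In the FoxJ group, Foxj2 had 2 knockdown 1 peaks (55 and 43 reads) and a knockdown size3 peak over its start (43 reads), all at separate sites. Foxj3 had a knockdown 1 peak of 122 reads with a summit 502 bp from the start and a knockdown 2 peak of 8 reads further inside, and Foxj1, a factor of motile cilia, had none. Foxr2 had 1 knockdown 1 peak of 20 reads.

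Peaks of knockdown 1 and knockdown size3 overlapped at 11 of the 63 genes (17.5%), against 8.23% of all protein-coding genes. Taken over the genes with a peak in both lists, this was 11 of 24 (45.8%), against 35.1% of all genes with a peak in both. The genes described here were Foxa2, Foxk2, Foxl2, Foxn2, Foxp2, Foxp4, Sox2, Sox8, Sox11 and Sox30, with a pair of overlaps at Foxk2 and at Sox2. The distance between summits ran from 10 bp at the inner site of Foxk2 to 1658 bp at Sox2, so an overlap of intervals did not always mean the same summit. At 13 of the 24 genes, the 2 lists marked the gene at different sites.

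**Figure D3:**
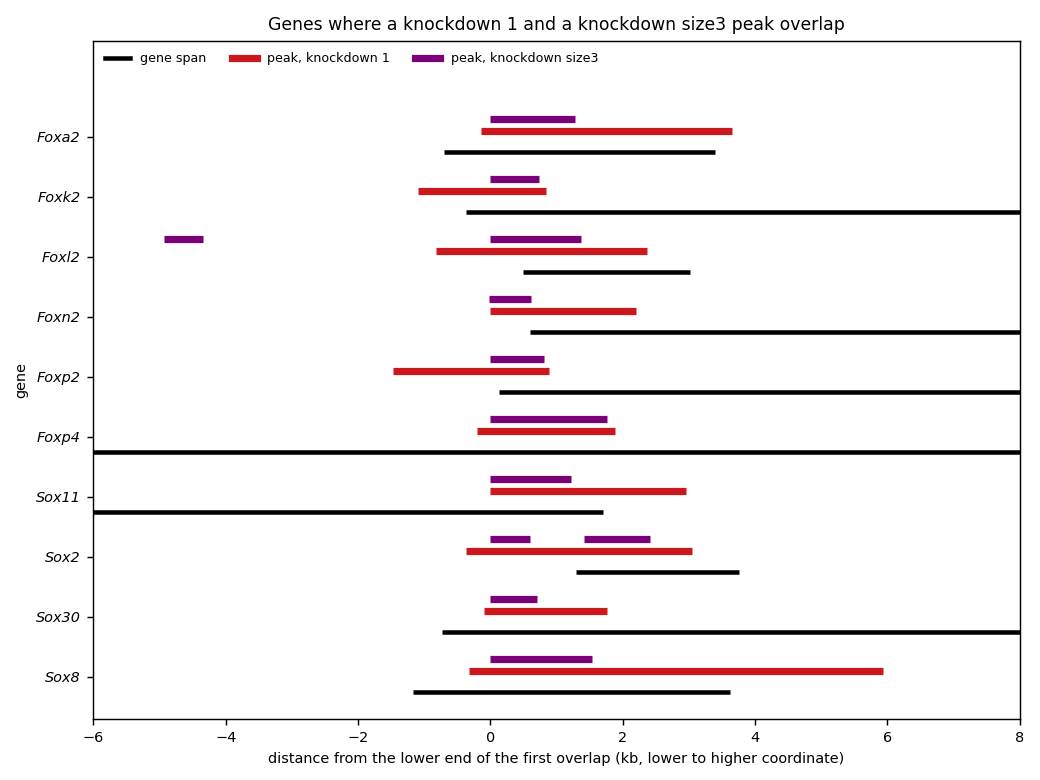
Position of knockdown 1 (red) and knockdown size3 (purple) peaks along 10 of the genes where they overlap (black, gene span), as distance in kb from the lower end of the first overlap, lower to higher coordinate. At Foxa2, Foxl2, Sox2 and Sox8 the red bars reach over 3 kb while the purple bars measure 1543 bp or less.

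The map of overlaps shows narrow knockdown size3 peaks lying within or at the edge of wider knockdown 1 peaks. At Foxl2, the knockdown 1 peak (chr9:98954287-98957485, 219 reads, fold 2.60) covered 74.6% of the gene and the whole upstream sequence printed above. The knockdown size3 peak there (chr9:98955117-98956492, 34 reads, fold 6.87) covered 35.2% of the gene, and a second knockdown size3 peak of 13 reads lay in the flank. At Foxn2, by contrast, the summits fell within 19 bp of each other.

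Peaks in control lists were seen at 6 of the genes: Foxb2, Foxp1, Foxp2, Foxp4, Foxs1 and Sox5. These 10 peaks were between 448 and 1069 bp wide and held 13 to 32 reads. The control peaks of Foxp1, Foxp2, Foxp4 and Sox5 lay inside the gene and those of Foxb2 and Foxs1 in the flank, and none had its summit within 1 kb of a gene end. At 1 gene, Foxb2, a control peak overlapped a knockdown peak. There, a control size3 peak of 945 bp shared 729 bp with the wide knockdown 1 peak, with summits 4332 bp apart. Such overlaps were not counted over all protein-coding genes, and neither were genes with a peak in any control list. Whether these counts are particular to the set was therefore not tested.

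Sox5, the longest gene of the set, had 0, 1 and 2 peaks in the control lists and 8, 7 and 6 in the knockdown lists, each in the order 1, 2 and size3. Each knockdown list held more peaks at it than each control list, and each knockdown list was also the longer one. Per 100 kb, the knockdown lists held 0.830, 0.726 and 0.622 peaks at Sox5 (all genes of 50 kb or more: 1.03, 0.184 and 0.851). The control lists held 0, 0.104 and 0.207 (all genes of that length: 0.0334, 0.00625 and 0.0998). The widest knockdown 1 peak, of 2472 bp with 129 reads and a fold of 7.12, crossed the upper end of the gene (chr6:144781177-144783648), and the other 7 were narrow, 434 to 744 bp with 18 to 31 reads. The knockdown 2 peaks held 8 to 13 reads and the knockdown size3 peaks 11 to 18, and no peak of one list overlapped a peak of another.

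Foxp1, a factor of lymphoid, neural and skeletal development, had 0, 0 and 2 control peaks and 9, 1 and 5 knockdown peaks in that order. Its 2 wide knockdown 1 peaks, of 1604 bp with 113 reads and 2430 bp with 151 reads, lay over annotated starts, and the other 7 were 325 to 909 bp wide with 18 to 35 reads. Foxp2, known for its part in vocal learning, had 2, 0 and 0 control peaks and 1, 4 and 1 knockdown peaks. Its knockdown 1 peak of 2359 bp with 193 reads crossed the lower end of the gene and overlapped the knockdown size3 peak of 18 reads, while the 4 knockdown 2 peaks, of 8 to 11 reads, and the 2 control 1 peaks, of 23 and 25 reads, lay inside the gene.

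Foxp4 had 0, 0 and 1 control peaks and 3, 0 and 3 knockdown peaks. The control size3 peak had the highest score of the control peaks at these genes, 101.71, with 28 reads at a false discovery rate of 82.35%, and 1 knockdown 1 peak overlapped 1 knockdown size3 peak over 1758 bp. Sox6 had no control peak and 4, 0 and 2 knockdown peaks, 1 of them a knockdown 1 peak of 2242 bp with 120 reads whose summit lay 14 bp from an annotated start. Foxn3 had no control peak and 6, 0 and 4 knockdown peaks, none of which overlapped between lists. Its widest knockdown 1 peak, of 1702 bp with 84 reads, lay inside the gene, with a summit 154962 bp from the annotated start.

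**Figure D4:**
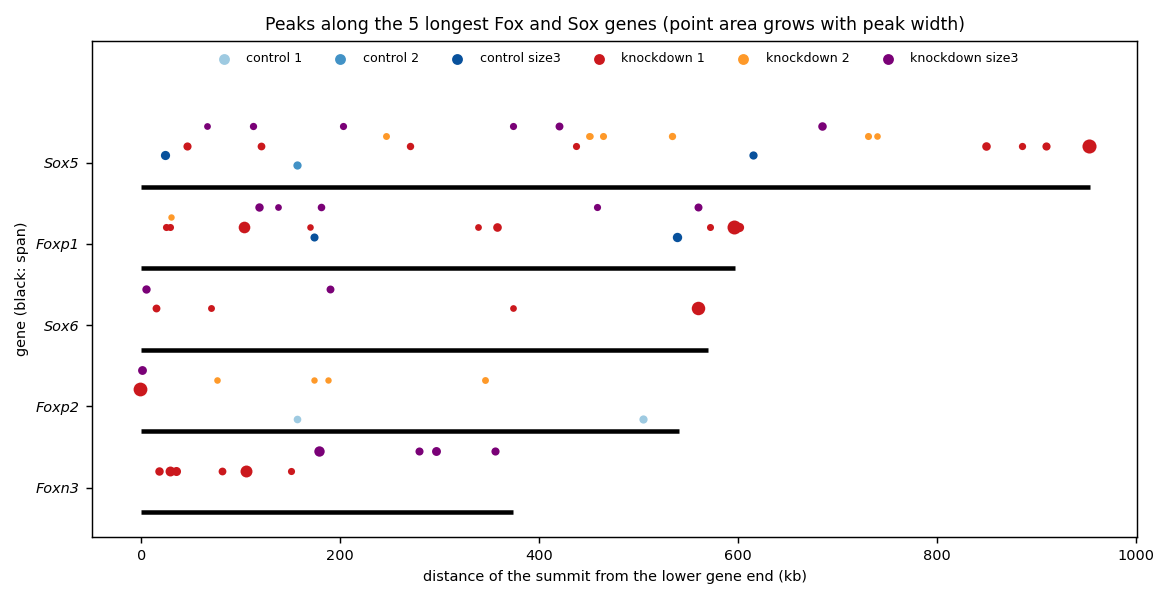
Summit positions of the peaks of all 6 lists along the 5 longest Fox and Sox genes, as distance in kb from the lower gene end; blue points are control lists, red, orange and purple points knockdown 1, 2 and size3, and point area grows with peak width. Large red points stand at a gene end or an annotated start (starts are not drawn) in Sox5, Foxp1, Sox6 and Foxp2. Small points are scattered along the gene. Foxn3 differs, as its largest red point, a peak of 1702 bp, stands 105031 bp from the nearest gene end.

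Density of peaks over the gene and its flanks was compared for long and for short genes. Over genes of 50 kb or more, Fox and Sox genes had 1.02 knockdown 1 peaks per 100 kb, against 1.03 for all genes of that length, and 0.739 knockdown size3 peaks, against 0.851. The other lists held few peaks at the long genes: 13 in knockdown 2 (0.369 per 100 kb, against 0.184), 5 in control size3 (0.142, against 0.0998), 2 in control 1 (0.0568, against 0.0334) and 1 in control 2 (0.0284, against 0.00625). Over genes under 10 kb the values were 4.90 against 2.24 in knockdown 1 and 4.02 against 1.68 in knockdown size3. In these 2 lists the higher density was at the short genes. Knockdown 2 had 0 peaks at the 41 short genes. All genes of that length had only 0.113 per 100 kb in it, so nothing is read from this. Its density was higher at the long genes of the set, where 11 of its 13 peaks lay in Sox5 and Foxp2.

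The start windows of the set were often under a knockdown 1 peak. RefSeq windows of 300 bases, 250 before and 50 after an annotated start, were matched for 41 of the 63 genes, 51 windows in all, and set against 21262 windows of 17491 genes. A knockdown 1 peak lay over 22 of the 51 windows (43.1%, against 16.0% of all windows) and a knockdown size3 peak over 8 (15.7%, against 7.55%). No window of the set lay under a peak of the other 4 lists, where 0% to 0.207% of all windows did. The knockdown 1 peaks over a window had a median width of 2742 bp, and those elsewhere at the same 41 genes 754 bp. At all genes with windows these widths were 1687 and 1006 bp.

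The start windows of Fox and Sox genes were rich in CpG, with a median of 21 per window against 13 over all windows. Windows under a knockdown 1 peak had a median of 24.5 CpG and the others 11, and windows under a knockdown size3 peak had 29.5 against 13. Over all genes the same contrast was 23 against 10 in knockdown 1 and 23 against 12 in knockdown size3. Of the 6 windows of the set with 4 CpG or fewer none was under a peak, where the background was 3.20% in knockdown 1 and 1.46% in knockdown size3, so nothing is read from it.

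Windows were also compared within classes of CpG number. In knockdown 1 the share of the set was above that of all windows in the classes given here. With 5 to 14 CpG, 7 of 17 windows (41.2%) were under a knockdown 1 peak, against 13.6% of all windows. With 15 to 24 CpG, 4 of 8 (50.0%) were, against 20.5%, and with 25 or more, 11 of 20 (55.0%), against 29.1%. In knockdown size3 the shares of the set were 5.88%, 0% and 35.0% in these classes, against 6.11%, 10.7% and 13.2%, so there the set stood above all windows in the class of 25 or more CpG. Each class holds 20 windows of the set or fewer, and windows of 1 gene can lie under 1 peak. The class of 25 or more has no upper limit, and the part of CpG number in these shares was not tested.

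**Figure D5:**
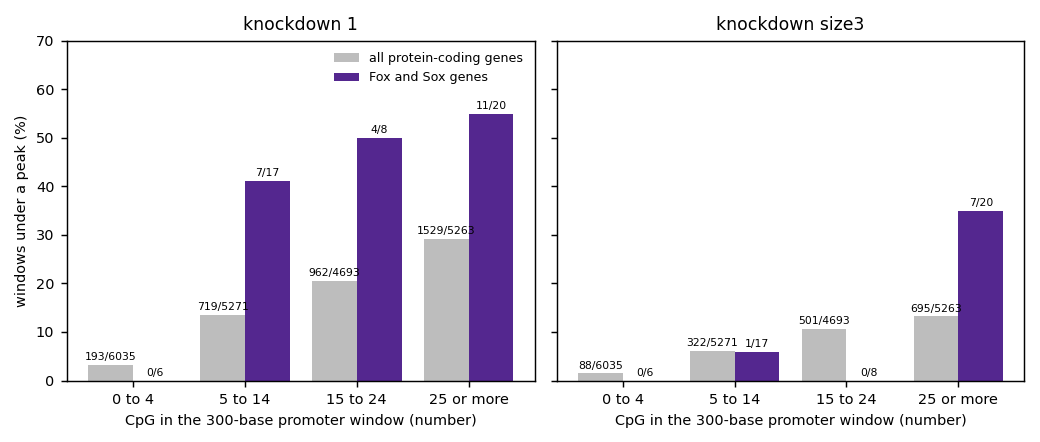
Share of 300-base start windows under a peak (percent, vertical axis from 0) by the number of CpG in the window, for knockdown 1 and knockdown size3; gray bars are windows of all protein-coding genes and purple bars the windows of Fox and Sox genes, with counts on top. In knockdown 1 the purple bars reach 41.2%, 50.0% and 55.0% in the 3 classes above 4 CpG.

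Short letter motifs of the windows were counted on both strands, as a description and not as binding sites. The forkhead letters GTAAACA were in 2 of 51 windows of the set (3.92%, against 3.01% of all windows), those of Foxa1 and Sox12. The Sox letters ACAATG were in 9.80% (11.0%) and ATTGTT in 3.92% (9.05%), and the TCF/LEF letters CTTTGA in 13.7% (14.4%). The E2F letters TTCCCGC were in 7.84% (5.95%) and TTGGCGC in 0% (3.09%), and the E-box CACGTG in 3.92% (7.84%). Some of these motifs can share bases. With 51 windows, a share of 3.92% is 2 windows.

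Other families of developmental transcription factors had similar shares in knockdown 1. Of 139 genes of 11 such families (Hox, Pax, Lhx, Tbx, Nkx, Irx, Pou, Gata, Klf and Dlx among them), 71.2% had a knockdown 1 peak and 42.4% a knockdown size3 peak, next to 68.3% and 55.6% of the Fox and Sox genes. Of all genes, 43.7% and 35.4% had one. A peak in 2 or more knockdown lists was found for 35.3% of the 139 genes, next to 39.7% of the Fox and Sox genes and 26.1% of all genes. Single families varied, from 52.9% (Klf) to 88.9% (Pax) in knockdown 1 and from 16.7% to 83.3% in knockdown size3. Hox genes, which are also short, had shares of 76.9% in knockdown 1 and 35.9% in knockdown size3, the latter near the 35.4% of all genes. These differences between families were not tested.

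Genes that work with the Fox and Sox factors were marked as follows. Of 20 cartilage genes that Sox9 is known to regulate, 15 (75.0%) had a knockdown 1 peak and 12 (60.0%) a knockdown size3 peak, next to 43.7% and 35.4% of all genes. Acan, the cartilage proteoglycan, and Runx2, the osteoblast factor, had a peak in all 3 knockdown lists, and Runx2 also in control size3. A peak in all 3 knockdown lists and no control list, as at Acan, was found for 2.35% of all genes. Col2a1 had a peak in knockdown size3 alone and Col11a1 in knockdown 2 alone, and Hapln1, Chad and Cnmd had none in any list. Of 24 regulators of FoxO factors, 16 (66.7%) had a knockdown 1 peak and 14 (58.3%) a knockdown size3 peak, the receptors Insr and Igf1r in both and Igf1r also in control size3. Stk4 of this list had a peak in control size3 alone, and Skp2 and Ywhaz had none in any list. Of 22 nuclear and core factors of Wnt signalling, 21 (95.5%) had a knockdown 1 peak and 12 (54.5%) a knockdown size3 peak, with Ctnnb1, Lef1, Tcf7, Tcf7l1 and Tcf7l2 in both and Lef1 and Tcf7l1 also in control size3. The median spans of these lists were 26139.5, 68816 and 54044.5 bp, well above that of the Fox and Sox genes. Of all genes of 10 to 50 kb, 45.5% had a knockdown 1 peak and 36.6% a knockdown size3 peak, and of those of 50 kb or more, 69.4% and 59.5%.

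The 5 kb limit left a few genes close on either side. Just inside it were Foxs1 in knockdown 1, with a gap of 4122 bp between gene and peak, Sox30 in knockdown 2 with 4639 bp and Foxd2 in knockdown size3 with 4968 bp. Just outside were Foxs1 in knockdown size3 with 5710 bp and Foxh1 in knockdown 1 with 5736 bp. Among the knockdown 1 peaks, 3 had a false discovery rate above 5%, namely those of Foxj3 (6.45%), Sox8 (12.35%) and Foxp2 (12.66%), and these had the highest scores of the 82, 178.2, 211.29 and 212.79.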

How the data were processed

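The 6 deposited peak lists come from anti-MACF1 immunoprecipitates of MC3T3-E1 cells, each called against its own input without pooling. Per the submitters' processing notes, cutadapt, Bowtie2 and MACS 1.4.2 were used with GRCm38. Per the file headers, the p cutoff was 1.00e-05, the band width 300 bp, and 1 read was kept per position. The deposited read count of a peak is the whole number of reads in it. The deposited score of a peak is 10 times the −log10 of its p-value. The deposited fold enrichment is a ratio to the local background, and the deposited false discovery rate is a percent from swapping immunoprecipitate and input. These values are the authors' and describe single peaks only.

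Peaks were joined to RefSeq gene spans (GRCm38.p6), widened by 5 kb, by an overlap of at least 1 bp, with Python 3.11.15, pandas 2.3.3, numpy 2.4.6 and matplotlib 3.10.9, and the join was tested on simulated data. Exons and introns were not analysed here. The shares of all protein-coding genes were compared between groups by an exact permutation test, and counts of Fox and Sox genes are descriptions beside the same share of all genes. The RefSeq promoter table matched 41 of 63 genes. The genes and lists were chosen with earlier results of these data known. Genes were named by rule: up to 20 with a peak in 2 or more lists, those with a control peak, and fixed skeletal, FoxO and SoxF genes. The others were named in groups. Of the genes counted, 1 that the rule names is not reported here by itself. Alternatives were windows of 0, 1 and 10 kb, summits only, stricter peaks, equal list lengths, each library left out and a replicate block.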

Additional observations from a re-analysis of the deposited data

How the results depend on the processing

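The difference between knockdown and control lists in the share of all protein-coding genes with a peak kept its direction in each alternative, from 0.382 points with equal list lengths (exact permutation p = 0.4) to 37.2 points without knockdown 2. As a replicate block, with labels 1, 2 and size3 paired, it was again 26.6 points (exact sign-flip permutation p = 0.25, the smallest that 8 flips allow). Deviations of same-label libraries correlated at -0.04, 0.07 and 0.07, under the limit set for pairing, although both size3 pairs share a low redundancy of 0.01 to 0.02. Windows of 0, 1 and 10 kb and the use of summits left the 4 counts of Fox and Sox genes within 1.5 times. So did a false discovery rate of at most 5% for 3 of them (22, 17 and 49). The difference in Fox and Sox genes per list, 25.3 as reported, was 6.33 at a score of at least 100 and 0 with equal list lengths of 198 peaks, and ran from 17.7 to 36.7 with 1 library left out. At a score of at least 100, knockdown 1, 2 and size3 marked 23.8%, 0% and 7.94% of the set, against 9.98%, 0.393% and 3.55% of all genes. Control 1, 2 and size3 marked 0%, 0% and 1.59%, against 0.0594%, 0.0228% and 0.0685%. For the counts over several lists that follow, the share of all genes under each alternative is not given. The count with a peak in 2 or more knockdown lists, 25 as reported, was 1 at that score (Sox11) and 0 with equal lengths, and ran from 4 to 25 with 1 library left out: 4 without knockdown 1 and 5 without knockdown size3, so it rests on that pair. The count in 2 or more control lists, 1 as reported, was 0 at a false discovery rate of at most 5% and 0 at the score limit, and ran from 0 to 1, with 0 without control 2 or control size3. The count in any list, 54 as reported, was 19 at the score limit and 7 with equal lengths, and ran from 38 to 54 with 1 library left out. The Fox and Sox peaks of knockdown 2, with a median of 9 reads, and of the control lists, with 13 to 32 reads, had deposited false discovery rates of 55.88% to 100%. A gene without a peak there was not shown to lack recovery.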
